A study of Mus musculus with 12 samples.

Results

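Expression of 6 genes of MHC class II antigen presentation was followed in mouse bone marrow cells that carried 1 of 4 retroviral constructs. The genes were H2-Aa, H2-Ab1, H2-Eb1, Cd74, Ciita and H2-DMa, taken by name from the probe annotation, where each had 1 probe set annotated to that symbol alone. They are 6 of the 19938 genes measured that way. The first construct, here called the minimal fusion, was CALM(400-648)+AF10 (677-758), which joins a fragment of CALM to a fragment of AF10. The second was the CALM-AF10 fusion, the third was CALM-AF10 ΔOM-LZ, from which OM-LZ had been deleted, and the fourth was the empty vector MIG, the baseline. Each construct had 3 biological replicates, 1 array each. The labels do not say whether these came from separate animals, and p-values measure the spread between these arrays only. All cells shared the rest of the protocol: adult C57/BL6/C3H mice received 5-fluorouracil 4 days before marrow was taken, the cells were stimulated for 48 h, and they were transduced on irradiated (40 Gy) GFP+E86 virus producers with protamine sulfate at 5 µg/ml. The RNA came from GFP-sorted cells 96 h after transduction, so every group, MIG included, consists of transduced cells kept in cytokines.

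MHC class II molecules display peptides from engulfed or membrane proteins to CD4 T cells. An alpha and a beta chain pair in the endoplasmic reticulum around the invariant chain, which blocks the peptide groove and steers the complex to endosomes. There cathepsins trim the invariant chain, and H2-DM exchanges its last fragment for a peptide. In marrow-derived cells, class II is best known from dendritic cells, B cells and activated macrophages, and CIITA is the coactivator that switches the genes on.

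The arrays did not sort by construct: over all probe sets the mean r was 0.9834 within constructs (12 pairs of arrays) and 0.9835 between them (54 pairs). For the class II genes, replicate 1 of CALM-AF10 ΔOM-LZ and replicate 2 of MIG stood apart, and results that rest on them are given with and without them. Values are deposited log2 intensities, in which a difference of 1 is a doubling. The values of different probe sets are not compared with each other. The deposited table holds no detection call, so whether a low value lies above background is not known. In sorted cells in bulk, fewer cells of a type and less RNA per cell cannot be told apart.

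None of the 6 genes passed the test in any comparison of constructs, while 4 of them varied strongly between the 3 CALM-AF10 ΔOM-LZ arrays. Their standard deviations there were 2.13 for H2-Aa, 1.72 for H2-Ab1, 1.44 for Cd74 and 0.76 for H2-Eb1. In minimal fusion arrays they were 0.11, 0.20, 0.60 and 0.17, in the same order. H2-Aa spanned 13.9-fold over the 12 arrays, Cd74 11.0-fold, H2-Ab1 9.07-fold and H2-Eb1 2.70-fold. H2-DMa spanned 2.09-fold and Ciita 1.26-fold. The standard deviation (SD) of H2-Aa over the 12 arrays was larger than that of 99.4% of the probe sets tested, that of Cd74 larger than 99.7% and that of H2-Ab1 larger than 99.2%. The share was 90.5% for H2-Eb1, 82.7% for H2-DMa and 22.3% for Ciita.

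**Figure D1:**
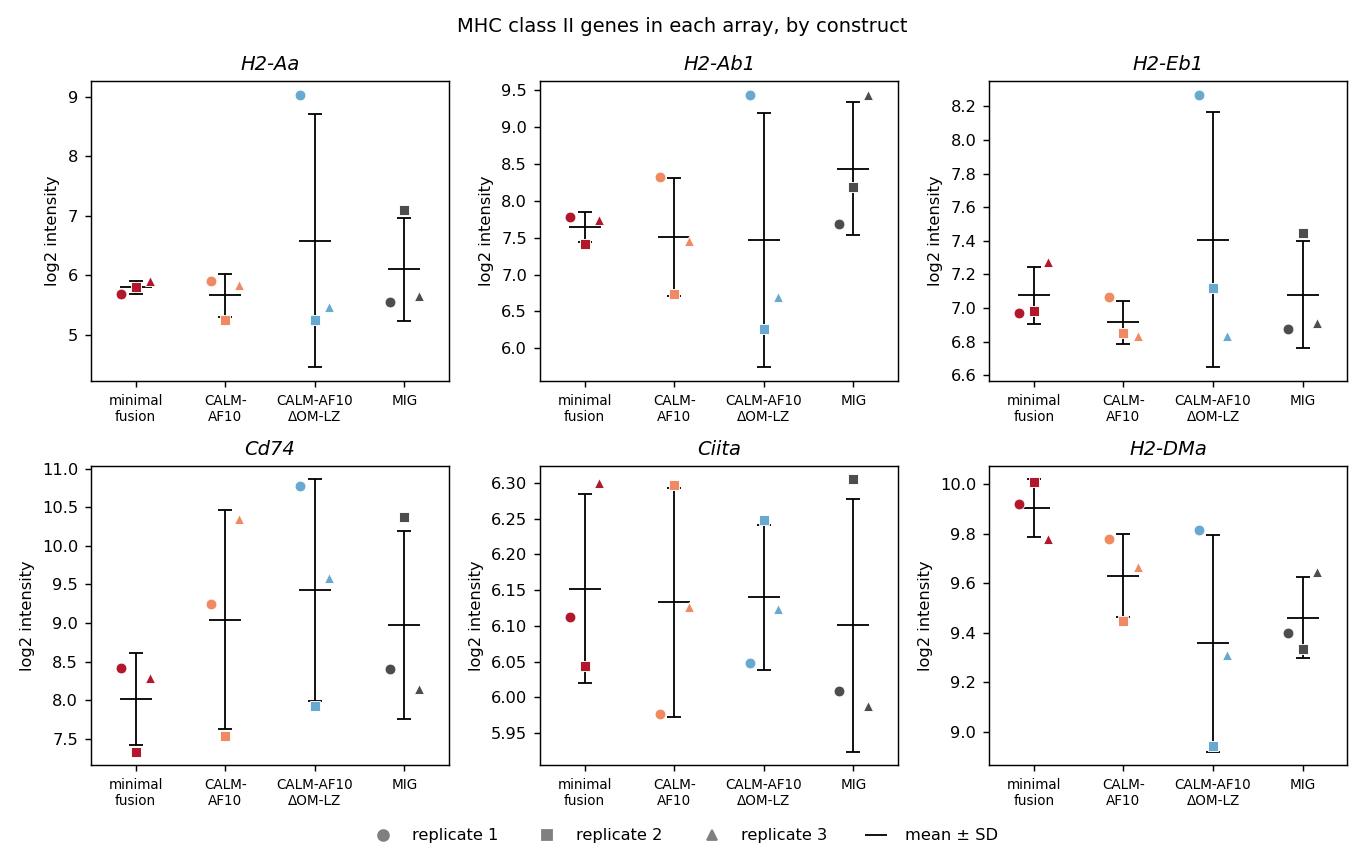
Log2 intensity of the 6 class II genes in each of the 12 arrays (vertical axes, each with its own range), by construct (horizontal axis). Points are arrays, with the symbol giving the replicate number, and bars are mean ± SD of 3 arrays. Replicate 1 of CALM-AF10 ΔOM-LZ is the highest point for H2-Aa, H2-Ab1, H2-Eb1 and Cd74, and the 3 minimal fusion arrays of H2-DMa lie above the 3 MIG arrays.

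H2-Aa and H2-Ab1 encode the alpha and beta chains of the I-A molecule, the class II molecule found in all common mouse strains. H2-Aa had log2 intensities of 5.69, 5.80 and 5.90 in minimal fusion arrays, 5.90, 5.25 and 5.83 in CALM-AF10 arrays and 9.04, 5.24 and 5.46 in CALM-AF10 ΔOM-LZ arrays (replicates 1, 2 and 3), against 5.54, 7.10 and 5.65 in MIG arrays. Replicate 1 of CALM-AF10 ΔOM-LZ and replicate 2 of MIG were high, the other 10 arrays lay between 5.24 and 5.90, and the groups overlapped in every pair. The mean was 5.80 ± 0.11 for the minimal fusion, 5.66 ± 0.36 for CALM-AF10 and 6.58 ± 2.13 for CALM-AF10 ΔOM-LZ, against 6.10 ± 0.87 for MIG (SD, n = 3 each).

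H2-Ab1 followed the same arrays only in part. It had 7.78, 7.41 and 7.75 in minimal fusion arrays, 8.33, 6.74 and 7.46 in CALM-AF10 arrays and 9.44, 6.26 and 6.70 in CALM-AF10 ΔOM-LZ arrays, against 7.68, 8.18 and 9.44 in MIG arrays. Replicate 1 of CALM-AF10 ΔOM-LZ was again at the top, now level with replicate 3 of MIG, in which H2-Aa was at 5.65. The mean was 7.65 ± 0.20 for the minimal fusion, 7.51 ± 0.80 for CALM-AF10 and 7.47 ± 1.72 for CALM-AF10 ΔOM-LZ, against 8.44 ± 0.90 for MIG (SD, n = 3 each).

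H2-Eb1 encodes the beta chain of the I-E molecule. It had 6.97, 6.98 and 7.27 in minimal fusion arrays, 7.07, 6.85 and 6.84 in CALM-AF10 arrays and 8.27, 7.12 and 6.83 in CALM-AF10 ΔOM-LZ arrays, against 6.88, 7.45 and 6.91 in MIG arrays. The pattern was that of H2-Aa on a smaller scale, with the same array of CALM-AF10 ΔOM-LZ highest and the same MIG array next.

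The letters before the start of these genes carry elements that class II promoters are known for: the X box, bound by the RFX complex, and the Y box, an inverted CCAAT element bound by NF-Y, on which CIITA assembles. The 250 bases before the start of the 2 member genes with such a pair in RefSeq's promoter table (GRCm38.p6) are printed 5′ to 3′ to show where the elements lie. That of H2-Aa is chr17:34287824-34288073 on the minus strand and that of H2-Eb1 is chr17:34305617-34305866 on the plus strand. Capitals mark GCAAC, part of the X box, and TGATTGG, the Y box.
H2-Aa: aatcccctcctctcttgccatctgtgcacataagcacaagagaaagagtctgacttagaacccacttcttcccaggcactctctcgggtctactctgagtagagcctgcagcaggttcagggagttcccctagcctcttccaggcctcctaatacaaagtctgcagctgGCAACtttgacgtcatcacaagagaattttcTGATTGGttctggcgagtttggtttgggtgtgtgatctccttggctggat
H2-Eb1: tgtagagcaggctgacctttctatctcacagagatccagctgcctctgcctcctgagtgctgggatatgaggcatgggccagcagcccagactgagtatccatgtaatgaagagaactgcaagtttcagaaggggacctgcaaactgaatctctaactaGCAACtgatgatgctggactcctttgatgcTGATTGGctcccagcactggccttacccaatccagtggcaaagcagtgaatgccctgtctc

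In H2-Aa the elements are 26 bases apart and in H2-Eb1 25 bases. Both strands of all 32851 promoter windows of 300 bases were searched for GCAAC (35.2% of windows), for TGATTGG (7.82%) and for GCAAC followed by TGATTGG on the same strand after 15 to 35 bases (67 windows, 0.204%). The motifs do not overlap each other. Of the 20 members and listed pathway genes, 14 had a window in the table and 5 held the pair. The other 3 were H2-Oa (chr17:34092295-34092344), H2-Ob (chr17:34238810-34238856) and H2-Eb2 (chr17:34325535-34325583), all on the plus strand, and their stretches are set out below for comparison with the members above.
H2-Oa: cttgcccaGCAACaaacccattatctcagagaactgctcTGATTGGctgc
H2-Ob: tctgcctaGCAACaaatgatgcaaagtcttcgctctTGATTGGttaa
H2-Eb2: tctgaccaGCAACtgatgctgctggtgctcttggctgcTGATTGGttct
A match is a description of letters and not of binding. H2-DMa had 2 windows, neither with the pair, and H2-Ab1, Cd74 and Ciita are named only.

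Cd74 encodes the invariant chain, the chaperone that class II chains need to fold and travel. It had 8.42, 7.33 and 8.29 in minimal fusion arrays, 9.25, 7.53 and 10.35 in CALM-AF10 arrays and 10.78, 7.92 and 9.58 in CALM-AF10 ΔOM-LZ arrays, against 8.41, 10.38 and 8.14 in MIG arrays. All 3 minimal fusion arrays lay at 8.42 or below, but an array of every other construct fell in the same range. The mean was 8.01 ± 0.60 for the minimal fusion, 9.04 ± 1.42 for CALM-AF10 and 9.43 ± 1.44 for CALM-AF10 ΔOM-LZ, against 8.98 ± 1.22 for MIG (SD, n = 3 each). In replicate 3 of CALM-AF10, where Cd74 reached 10.35, H2-Aa was at 5.83 and H2-Ab1 at 7.46.

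Ciita, the gene of the master coactivator, was nearly level. Its group means were 6.15 ± 0.13 in minimal fusion arrays, 6.13 ± 0.16 in CALM-AF10 arrays and 6.14 ± 0.10 in CALM-AF10 ΔOM-LZ arrays, against 6.10 ± 0.18 in MIG arrays (SD, n = 3 each). In replicate 1 of CALM-AF10 ΔOM-LZ, with the highest H2-Aa, it stood at 6.05, within its range of 5.98 to 6.31 over the 12 arrays. Like H2-Aa, Ciita dropped out when dim probe sets were left out, and whether its level signal lies above background is not known.

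H2-DMa encodes the alpha chain of H2-DM, the enzyme-like molecule that loads peptides. It had 9.92, 10.01 and 9.78 in minimal fusion arrays, 9.78, 9.45 and 9.67 in CALM-AF10 arrays and 9.82, 8.94 and 9.31 in CALM-AF10 ΔOM-LZ arrays, against 9.40, 9.34 and 9.64 in MIG arrays. The minimal fusion arrays lay above all MIG arrays and, at equal values to 2 decimals, just above the highest CALM-AF10 array, and overlapped CALM-AF10 ΔOM-LZ through its replicate 1. The mean was 9.90 ± 0.12 for the minimal fusion, 9.63 ± 0.17 for CALM-AF10 and 9.36 ± 0.44 for CALM-AF10 ΔOM-LZ, against 9.46 ± 0.16 for MIG (SD, n = 3 each).

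The first question was whether the minimal fusion changed these genes against the empty vector, its baseline. By limma 0 of 6 passed an adjusted p of 0.05, beside 0.0342% of all probe sets tested, and 1 had an unadjusted p under 0.05, beside 7.61%. That gene was H2-DMa, with a log2 difference (minimal fusion minus MIG) of 0.44 (SE 0.19, 95% interval 0.02 to 0.87, adjusted p = 0.628), a ratio of 1.36. It was the only member whose groups did not overlap, and 6.08% of all probe sets had minimal fusion arrays entirely above MIG arrays. The differences were −0.96 for Cd74 (95% interval −2.85 to 0.93, adjusted p = 0.835) and −0.79 for H2-Ab1 (−2.43 to 0.85, adjusted p = 0.846). They were −0.30 for H2-Aa (−2.11 to 1.51), −0.003 for H2-Eb1 (−0.68 to 0.67) and 0.05 for Ciita (−0.22 to 0.32). The interval of H2-Aa holds a 2-fold difference in either direction, and those of H2-Ab1 and Cd74 hold a 2-fold lower level under the minimal fusion. Differences above 0 were seen in 2 of the 6 genes, beside 51.2% of all probe sets, and the median over the 6 was −0.15, against 0.00 over all probe sets tested. Without replicate 1 of CALM-AF10 ΔOM-LZ and replicate 2 of MIG the H2-Aa difference was 0.20, that of H2-Eb1 0.18, that of Cd74 −0.26, that of H2-Ab1 −0.91, that of H2-DMa 0.38 and the median of the 6 genes 0.17. Without replicate 3 of MIG the H2-Ab1 difference was −0.29.

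CALM-AF10 against MIG gave 0 of 6 genes past the threshold by limma (0% of all probe sets) and 0 with an unadjusted p under 0.05 (5.26%). The log2 differences were −0.93 for H2-Ab1 (95% interval −2.57 to 0.71), −0.44 for H2-Aa (−2.25 to 1.37), −0.16 for H2-Eb1 (−0.84 to 0.52), 0.03 for Ciita (−0.24 to 0.30), 0.07 for Cd74 (−1.82 to 1.96) and 0.17 for H2-DMa (−0.25 to 0.59). Every adjusted p was 0.9997. No member had groups that did not overlap, beside 9.31% of all probe sets. Without replicate 2 of MIG the difference was 0.07 for H2-Aa, 0.02 for H2-Eb1 and 0.77 for Cd74. Without replicate 3 of MIG it was −0.43 for H2-Ab1 and −0.35 for Cd74.

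CALM-AF10 ΔOM-LZ against MIG also gave 0 of 6 past the threshold (0% of all probe sets) and 0 with an unadjusted p under 0.05 (3.96%). H2-Ab1 differed by −0.97 (95% interval −2.61 to 0.67), H2-Aa by 0.48 (−1.33 to 2.29), Cd74 by 0.45 (−1.44 to 2.34) and H2-Eb1 by 0.33 (−0.35 to 1.01). H2-DMa differed by −0.10 (−0.52 to 0.32) and Ciita by 0.04 (−0.23 to 0.31). The groups overlapped for all 6, beside 8.04% of all probe sets whose groups did not. Without replicate 1 of CALM-AF10 ΔOM-LZ the difference was −0.75 for H2-Aa, −0.10 for H2-Eb1, −0.23 for Cd74 and −1.96 for H2-Ab1. Without both arrays that stood apart it was −0.24 for H2-Aa, 0.08 for H2-Eb1, 0.48 for Cd74 and −2.08 for H2-Ab1. The sign for H2-Eb1 and Cd74 turned without replicate 1 of CALM-AF10 ΔOM-LZ alone, but not without both arrays. That for H2-Aa turned in both cases.

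**Figure D2:**
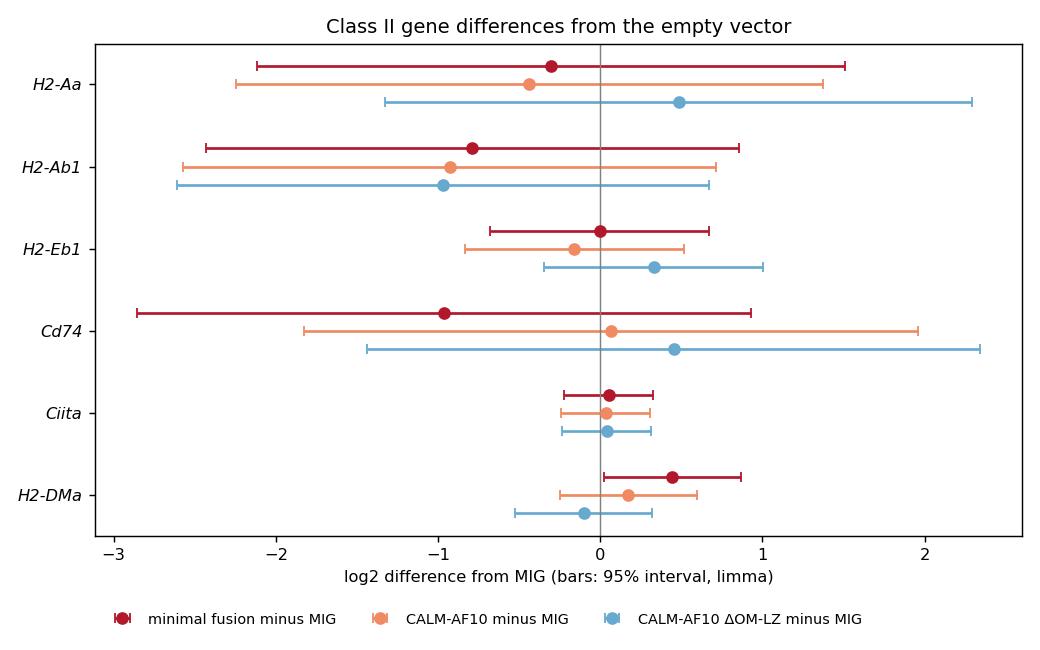
Log2 difference from MIG (horizontal axis) for each class II gene (rows) under the 3 fusions, with 95% intervals from limma. The interval of H2-DMa under the minimal fusion, 0.02 to 0.87, is the only one that does not reach 0, and it does not account for the number of probe sets tested.

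The part named OM-LZ lies in AF10 and binds the histone methyltransferase DOT1L, and the pairs of fusions ask what its loss, or a reduction to fragments, does. CALM-AF10 against CALM-AF10 ΔOM-LZ gave 0 of 6 past the threshold (0% of all probe sets) and 0 with an unadjusted p under 0.05 (2.26%). H2-Aa differed by −0.92 (95% interval −2.73 to 0.89), H2-Eb1 by −0.49 (−1.17 to 0.19), Cd74 by −0.38 (−2.28 to 1.51) and H2-DMa by 0.27 (−0.15 to 0.70). The groups overlapped for all 6, while they did not for 6.76% of all probe sets. Same-numbered arrays of these 2 constructs deviated together, and a fit with the replicate block on their 6 arrays also called 0 of 6, with H2-DMa at an adjusted p of 0.382. Without replicate 1 of CALM-AF10 ΔOM-LZ the H2-Aa difference was 0.31, that of Cd74 0.29, that of H2-Eb1 −0.06, that of H2-DMa 0.50 and that of H2-Ab1 1.03, where H2-Ab1 had 0.04 with it.

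The minimal fusion against CALM-AF10 ΔOM-LZ gave 0 of 6 past the threshold (0.0171% of all probe sets) and 1 with an unadjusted p under 0.05 (4.1%). This was again H2-DMa, with a log2 difference of 0.55 (SE 0.19, 95% interval 0.12 to 0.97, adjusted p = 0.9995). Cd74 differed by −1.42 (−3.31 to 0.47), the largest difference of the 6 genes in any pair, and H2-Aa by −0.79 (−2.60 to 1.02). None of the 6 had groups that did not overlap (7.78% of all probe sets). Without replicate 1 of CALM-AF10 ΔOM-LZ these were 0.78 for H2-DMa, −0.74 for Cd74 and 0.44 for H2-Aa, and H2-Ab1 was at 1.17, where it had 0.18 with that array.

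The minimal fusion against CALM-AF10 gave 0 of 6 past the threshold (0.00427% of all probe sets) and 0 with an unadjusted p under 0.05 (1.8%). Cd74 differed by −1.03 (95% interval −2.92 to 0.86) and H2-DMa by 0.27 (−0.15 to 0.70). The groups did not overlap for H2-DMa alone of the 6, and 2.06% of all probe sets had minimal fusion arrays entirely above CALM-AF10 arrays. Without replicate 3 of CALM-AF10 the Cd74 difference was −0.38. The other 4 differences lay between 0.02 for Ciita and 0.16 for H2-Eb1. Comparisons that share a construct share its arrays and are not independent of each other.

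The fusions with OM-LZ (CALM-AF10 and the minimal fusion, 6 arrays) were also set against the arrays without it (CALM-AF10 ΔOM-LZ and MIG, 6 arrays). This gave 0 of 6 past the threshold (0.0128% of all probe sets) and 1 with an unadjusted p under 0.05 (6.95%). H2-DMa had a mean of 9.77, against 9.41, a difference of 0.36 (SE 0.14, 95% interval 0.06 to 0.66, adjusted p = 0.618). Cd74 differed by −0.67 (−2.01 to 0.66) and H2-Aa by −0.61 (−1.89 to 0.67), and the median of the 6 genes was −0.31. Without the 2 arrays that stood apart Cd74 differed by 0.02, H2-Aa by 0.25 and H2-DMa by 0.44, and the median was 0.06. The 6 and 6 arrays overlapped for every member, while they did not for 0.525% of all probe sets. The F test over the 4 constructs called 0 of 6 as well (0.00854% of all probe sets), and 0 had an unadjusted p under 0.05 (4.3%), with H2-DMa nearest at 0.0717.

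Genes that work beside the 6 showed which arrays carried the pattern. Another 14 genes of the class II pathway had been listed (further H2 chains, cathepsins and helpers), of which 12 were measured by a probe set of their own. H2-DMb1 and H2-DMb2 share a probe set and were left out. Replicate 1 of CALM-AF10 ΔOM-LZ was the highest of the 12 arrays for 4 of the 6 members and 6 of these 12 genes, against 7.11% of all probe sets tested. It and replicate 2 of MIG were the top pair for 3 of 6 members and 7 of 12 pathway genes, against 3.94% of all probe sets. These arrays had been singled out by the values of the members, so the member counts follow from that choice and are no separate support. For H2-Ab1 the lead of replicate 1 of CALM-AF10 ΔOM-LZ over replicate 3 of MIG was only 0.002.

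The genes named in this and the next 2 paragraphs for single arrays were picked after their values were seen. Ctss, whose protease cathepsin S makes the last cuts of the invariant chain, was at 11.12 in replicate 1 of CALM-AF10 ΔOM-LZ and 11.01 in replicate 2 of MIG, and the other 10 arrays lay between 7.46 and 8.99. Lgmn, an endosomal protease gene, was at 10.04 and 8.65 in these arrays and between 6.54 and 7.55 in the other 10. H2-Ea, the gene of the I-E alpha chain, was at 8.50 and 7.84 there and between 6.07 and 7.09 elsewhere. C57BL/6 mice are known to lack a working Ea promoter and C3H mice to express the gene, RefSeq lists it as a transcribed pseudogene, and the labels do not give the H2 haplotype of the cells.

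**Figure D3:**
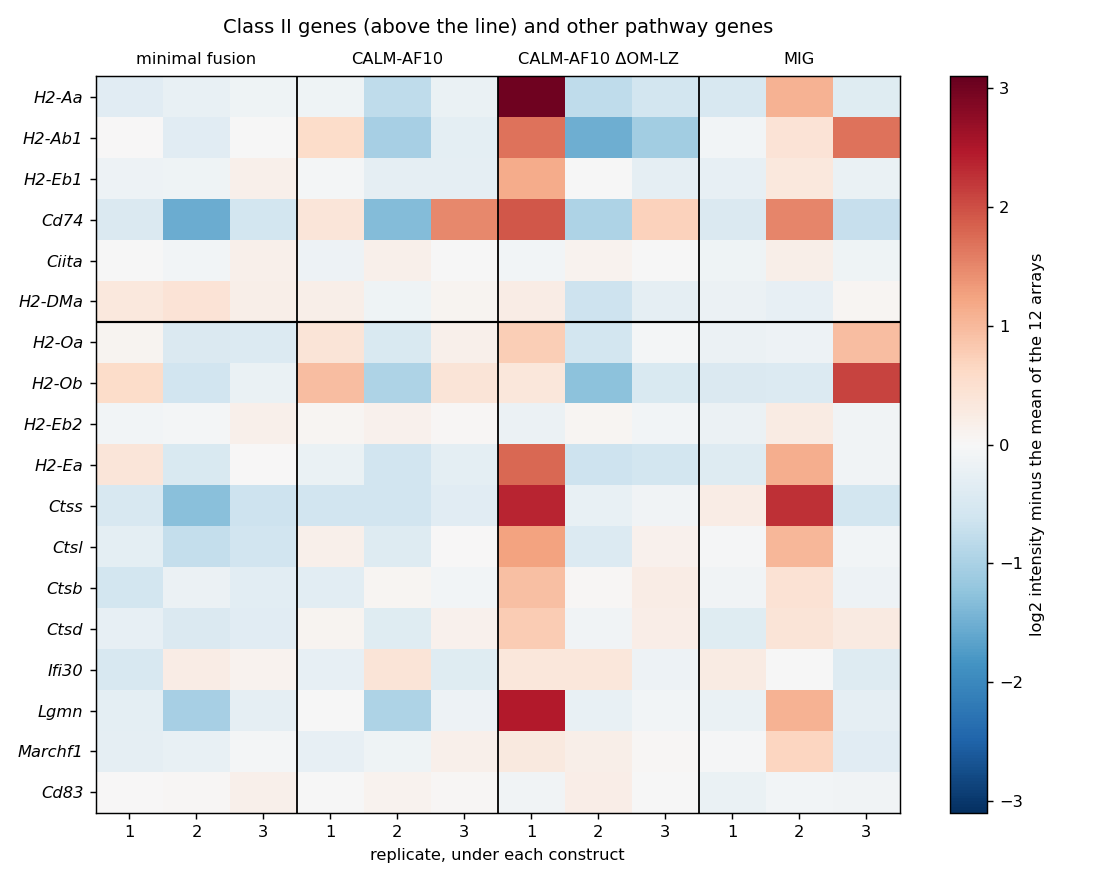
Log2 intensity minus the gene's mean over the 12 arrays (colour scale), for the 6 class II genes above the line and 12 other pathway genes below it (rows), in the 12 arrays ordered by construct (columns). Replicate 1 of CALM-AF10 ΔOM-LZ and replicate 2 of MIG share raised H2-Aa, Cd74, H2-Ea, Ctss and Lgmn, while H2-Ab1, H2-Oa and H2-Ob are raised in replicate 3 of MIG.

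A second set of arrays, which shared replicate 1 of CALM-AF10 ΔOM-LZ with the first, carried H2-Ab1 together with H2-Ob and H2-Oa. These encode the chains of H2-O, which restrains H2-DM in B cells. H2-Ob was at 8.32 in replicate 1 of CALM-AF10, 9.45 in replicate 3 of MIG and between 6.09 and 7.92 in the other 10. H2-Oa was at 9.43 in replicate 1 of CALM-AF10 ΔOM-LZ and 9.63 in replicate 3 of MIG, and between 8.10 and 9.06 elsewhere. On chromosome 17 H2-Ob and H2-Ab1 are neighbouring protein-coding genes, with H2-Aa next to H2-Ab1 on its other side. In replicate 3 of MIG the log2 deviations from the 12-array mean were 2.09 for H2-Ob and 1.68 for H2-Ab1, but −0.39 for H2-Aa and −0.21 for H2-Eb1.

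Against MIG, the other pathway genes gave 0 calls of 12 by limma for each fusion, and 0 with an unadjusted p under 0.05. Over all probe sets the latter share was 7.61% for the minimal fusion, 5.26% for CALM-AF10 and 3.96% for CALM-AF10 ΔOM-LZ. For the minimal fusion 3 had a positive difference and 9 a negative one, with a median of −0.43 (0.00 over all probe sets). Ctsl, a cathepsin gene, differed by −0.84 (SE 0.40, adjusted p = 0.675) and Ctss by −1.45 (SE 0.75, adjusted p = 0.696). Cd83, which keeps class II on the surface, differed by 0.20 (SE 0.10, adjusted p = 0.684). For CALM-AF10 the median was −0.18 and for CALM-AF10 ΔOM-LZ 0.05. Without the 2 arrays that stood apart the medians were −0.26 for the minimal fusion, −0.01 for CALM-AF10 and 0.10 for CALM-AF10 ΔOM-LZ.

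The regulators of class II genes listed were RFX and NF-Y subunits, interferon regulatory factors and others, 13 of 14 measured. For any fusion against MIG 0 of 13 passed by limma. An unadjusted p under 0.05 was held by 0 of them under the minimal fusion (7.61% of all probe sets), 0 under CALM-AF10 (5.26%) and 2 under CALM-AF10 ΔOM-LZ (3.96%). Their median differences were −0.08 for the minimal fusion, 0.01 for CALM-AF10 and −0.10 for CALM-AF10 ΔOM-LZ. In the interferon gamma pathway, the best known inducer of CIITA, 0 of 11 measured genes passed by limma under the minimal fusion. Differences were above 0 for 6 and below 0 for 5, with a median of 0.04. Jak2 and Gbp3 had an unadjusted p under 0.05, beside 7.61% of all probe sets, and differed in opposite directions. Jak2 differed by −0.71 (SE 0.25, adjusted p = 0.555 by limma). Gbp3, an interferon-induced GTPase gene, was at 6.88, 7.00 and 7.04 in minimal fusion arrays, against 6.67, 6.11 and 6.50 in MIG arrays, a log2 difference of 0.55 (SE 0.13, adjusted p = 0.386). Its difference from MIG was 0.31 under CALM-AF10 and 0.09 under CALM-AF10 ΔOM-LZ. Of 12 measured class I pathway genes 0 passed by limma under the minimal fusion and 1, Tapbp, had an unadjusted p under 0.05 (7.61% of all probe sets). Tapbp was not particular to the minimal fusion. Its difference from MIG was 0.32 there, 0.36 under CALM-AF10 and 0.38 under CALM-AF10 ΔOM-LZ (SE 0.12 each). Under the minimal fusion a difference from MIG above 0 was seen in 10 of the 12, beside 51.2% of all probe sets, and the median of the 12 was 0.13. Of 10 costimulation genes 0 passed under the minimal fusion and 1 had an unadjusted p under 0.05 (7.61% of all probe sets). This was Tnfsf9, the 4-1BB ligand gene, which was at 6.90, 7.29 and 7.57 in minimal fusion arrays, against 8.17, 7.91 and 8.33 in MIG arrays, a difference of −0.89 (SE 0.18, adjusted p = 0.307). It was at 7.37, 7.61 and 7.59 in CALM-AF10 arrays and 7.92, 7.53 and 7.47 in CALM-AF10 ΔOM-LZ arrays.

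Some marker lists of other cell types were high in arrays where class II genes were high, and others were not. A list score is the mean over a list's genes of the log2 deviation from the 12-array mean. In replicate 1 of CALM-AF10 ΔOM-LZ the score was −0.26 for neutrophil markers and −0.25 for eosinophil markers. In replicate 2 of MIG these scores were 0.44 and 0.22. The neutrophil markers went both ways in replicate 1 of CALM-AF10 ΔOM-LZ. It was the highest array for Ly6g (12.07), Cxcr2 (10.51) and Mmp9 (6.20), and the lowest for Elane (9.94), Mpo (12.10) and Prtn3 (10.17). These genes were picked after their values were seen. For 14 measured monocyte and macrophage markers the score ran from −0.50 to −0.32 in minimal fusion arrays, −0.30 to 0.06 in CALM-AF10 arrays and −0.04 to 1.12 in CALM-AF10 ΔOM-LZ arrays, against −0.39 to 0.82 in MIG arrays. The highest scores, 1.12 and 0.82, belonged to replicate 1 of CALM-AF10 ΔOM-LZ and replicate 2 of MIG, and these were the top pair for 8 of the 14 genes. The macrophage genes C1qb and Mrc1 were at 10.15 and 10.24 in replicate 1 of CALM-AF10 ΔOM-LZ, at 7.21 and 8.24 in replicate 2 of MIG, and no higher than 6.58 and 7.11 in the other 10 arrays. They were picked after their values were seen and had the largest gaps of the 14 between the highest array and the next, together with C1qc. By contrast Cd14 (8.99), Cx3cr1 (7.43) and Cd163 (4.86) lay below their 12-array means in replicate 1 of CALM-AF10 ΔOM-LZ, and stood at 10.59, 7.75 and 5.07 in replicate 2 of MIG.

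For 10 mast cell and basophil markers the score ran from −1.03 to −0.43 in minimal fusion arrays, −0.64 to 0.91 in CALM-AF10 arrays and −0.18 to 1.26 in CALM-AF10 ΔOM-LZ arrays, against −0.36 to 1.79 in MIG arrays. Replicate 1 of CALM-AF10 (0.91), replicate 1 of CALM-AF10 ΔOM-LZ (1.26) and replicate 3 of MIG (1.79) had the highest scores and were also the 3 highest arrays for H2-Ab1. Under the minimal fusion all 10 markers had a difference from MIG below 0, with a median of −0.94, while 51.2% of all probe sets had one above 0. By limma 0 of the 10 passed and 2 had an unadjusted p under 0.05 (7.61% of all probe sets). The scores of 18 dendritic cell markers stayed between −0.14 and 0.16 over the 12 arrays and those of 11 B cell markers between −0.08 and 0.14. The highest dendritic cell scores, 0.16 and 0.12, belonged to replicate 2 of MIG and replicate 1 of CALM-AF10 ΔOM-LZ. A score averages genes of unlike spread: Clec10a ran from 5.88 to 9.10 and Clec9a from 4.40 to 4.93. Of 10 stem and progenitor markers 7 had a difference above 0 under the minimal fusion, where H2-DMa stood highest, with a median of 0.21. Of the 10, 1 passed by limma, beside 0.0342% of all probe sets: Cd27, a TNF receptor family gene, rose by 1.93 (SE 0.23, adjusted p = 0.0359). Without the 2 arrays that stood apart 0 of these 10 passed and their median was 0.07, and with only the arrays of both constructs in the fit no probe set was called. The part of any marker list in the class II values was not tested.

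**Figure D4:**
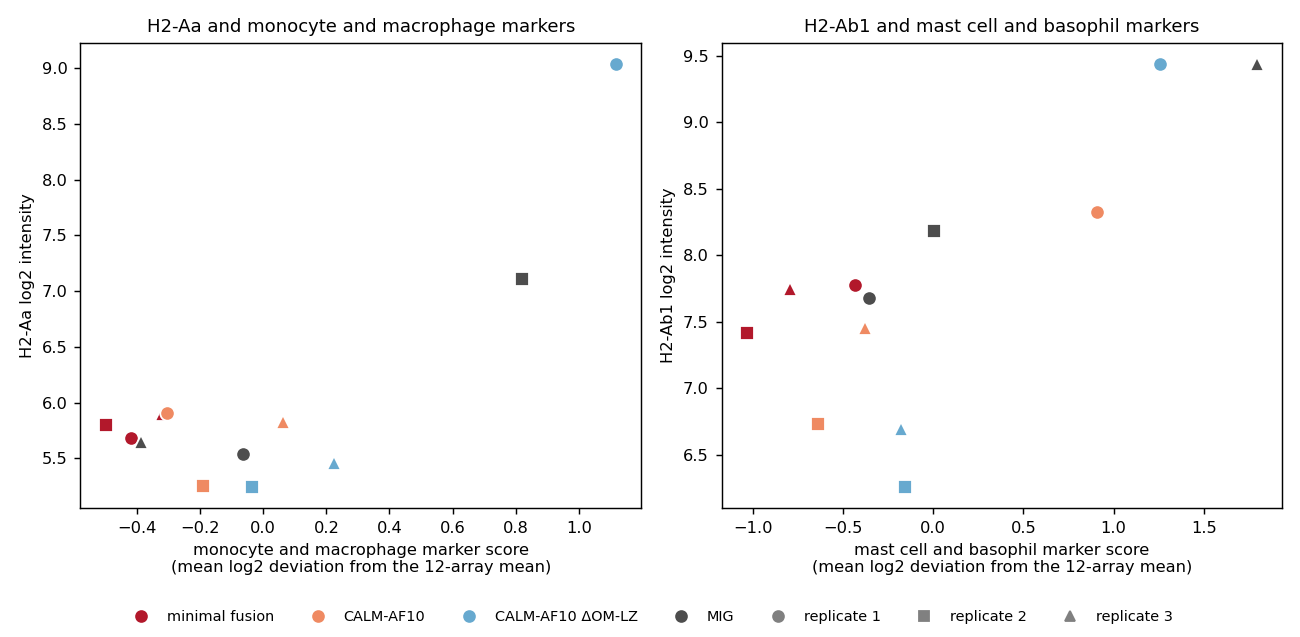
Left, H2-Aa log2 intensity (vertical axis) against the monocyte and macrophage marker score (horizontal axis). Right, H2-Ab1 against the mast cell and basophil marker score. Points are the 12 arrays, coloured by construct with the symbol giving the replicate number, and the arrays at 9.04 and 7.10 for H2-Aa are also those with the highest monocyte and macrophage scores, 1.12 and 0.82.

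Over the 12 arrays, 15 pairs of the 6 genes were correlated, with permutation tests adjusted over the 15. H2-Aa and H2-Eb1 had a Pearson r of 0.95 (permutation p = 0.00145, adjusted 0.0182) and a Spearman rho of 0.62 (p = 0.0366, adjusted 0.183). Without replicate 1 of CALM-AF10 ΔOM-LZ and replicate 2 of MIG r was 0.31, so the relation rests on these arrays. H2-Aa and Cd74 had an r of 0.70 (permutation p = 0.00243, adjusted 0.0182), rho of 0.63 (p = 0.0321, adjusted 0.183) and r of 0.35 without the same arrays. H2-Aa and H2-Ab1 had r of 0.65 (permutation p = 0.0169, adjusted 0.0845), rho of 0.75 (p = 0.00702, adjusted 0.105) and r of 0.60 without those 2 arrays. Over the other 12 pairs r ran from −0.51 to 0.54, and no adjusted p of these was under 0.05. With the 2 arrays farthest from the median left out, r over these 12 ran from −0.55 to 0.81. The highest was H2-Aa with H2-DMa, at 0.81 without replicate 1 of CALM-AF10 ΔOM-LZ and replicate 2 of MIG and 0.27 with them. H2-Eb1 with Cd74 was at −0.28 without the same arrays and 0.54 with them. H2-Ab1 with H2-DMa was at 0.52, and at 0.895 on deviations from construct means. Ciita had an r of −0.10 with H2-Aa.

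The 3404 other genes whose SD over the 12 arrays was at least 0.3 were ranked by Pearson r with the class II score, the same mean of deviations taken over the 6 genes. The score is not scaled by gene. Cd74, H2-Aa and H2-Ab1, with SDs of 1.17, 1.06 and 0.99, therefore weigh more in it than H2-Eb1 (0.41), H2-DMa (0.31) and Ciita (0.13). The 10 highest were Marcks (r = 0.96), Plxna1 (0.94), H2-Ea (0.92), Nek6 (0.92), Lgmn (0.92), Cd9 (0.91), Emp1 (0.90), Ms4a7 (0.90), Egr2 (0.90) and Pdcd1lg2 (0.90). The 5 lowest were Rasgrp2 (−0.91), B4galt4 (−0.89), Lrrc46 (−0.89), Tspan2 (−0.86) and Gfi1 (−0.86), a repressor of myeloid fate genes. The 2 arrays that stood apart had class II scores of 1.32 and 0.54, and the others lay between −0.63 and 0.13. Without these 2 arrays r was 0.84 for Marcks, 0.83 for Pdcd1lg2, which encodes the PD-1 ligand PD-L2, and −0.87 for Rasgrp2, while it was 0.39 for Ms4a7 and 0.52 for Lgmn. The 10 genes listed as highest then ranked from 84 (Marcks) and 102 (Pdcd1lg2) to 1504 (Ms4a7) of 3404, so the order rests on these arrays.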

How the data were processed

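The deposited values are log2 intensities from Affymetrix arrays, processed by the authors in Expression Console (per the submitters' processing notes), with version, summarization and normalization not given in the sources used here. They were used as they stand, with array medians of 6.581 to 6.686. Of 35556 probe sets, 23410 had a gene symbol and were tested, 21789 of them with 1 symbol and 1621 with several. Genes were represented by their brightest probe set, and each member had 1.

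A linear model with 1 mean per construct over the 12 arrays was fitted with limma 3.58.1 in R 4.3.3 (lmFit, eBayes, 8 residual degrees of freedom). P values are two-sided, adjusted by Benjamini-Hochberg over the 23410 probe sets, with a threshold of 0.05. With 3 arrays per construct, their number limits the precision. Permutation tests of correlations used 100000 permutations.

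The replicate numbers are from the labels, which do not say what they share. Same-numbered arrays deviated together from their group means (r over 0.1) in all 3 pairs for CALM-AF10 and CALM-AF10 ΔOM-LZ (r = 0.73, 0.72 and 0.70). No other pair of constructs met this in all 3, so that comparison alone is also given with a replicate block. Single pairs elsewhere did deviate together. The minimal fusion had r of 0.72, 0.39 and −0.20 with CALM-AF10 and 0.62, 0.07 and −0.07 with CALM-AF10 ΔOM-LZ.

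Members and lists were chosen with earlier results of these data known. Named were the 6 members, from a list discussed up to 4 genes with the highest and lowest moderated statistics, and the genes most like the class II score. Alternatives were other scalings, variance models, sets of arrays, blocks and filters, and leaving out arrays.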

Additional observations from a re-analysis of the deposited data

How the results depend on the processing

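No member passed in any comparison under any alternative: centred or quantile-normalized arrays, trend and robust variances, dim probe sets left out, all probe sets, only the groups compared, a replicate block, and without 1 or 2 arrays. The smallest adjusted p was 0.382 without leaving arrays out, 0.45 without 1 array and 0.49 without 2. The cause of the sign changes below was not tested.

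Quantile normalization turned Ciita to −0.004 for CALM-AF10 ΔOM-LZ against MIG, 0.022 for CALM-AF10 against CALM-AF10 ΔOM-LZ and −0.002 for the minimal fusion against CALM-AF10. Leaving out arrays, each in turn or, chosen after seeing the data, replicate 1 of CALM-AF10 ΔOM-LZ with replicate 2 of MIG, turned further signs. For the minimal fusion against MIG the log2 differences then ran from −0.58 to 0.20 for H2-Aa, −0.10 to 0.18 for H2-Eb1 and −0.023 to 0.15 for Ciita. H2-DMa stayed between 0.38 and 0.54 there in turn. For CALM-AF10 against MIG they ran from −0.71 to 0.066 for H2-Aa, −0.26 to 0.023 for H2-Eb1, −0.58 to 0.82 for Cd74 and −0.049 to 0.14 for Ciita. For CALM-AF10 ΔOM-LZ against MIG they ran from −0.74 to 1.15 for H2-Aa, −0.10 to 0.62 for H2-Eb1, −0.23 to 1.21 for Cd74, −0.017 to 0.19 for Ciita and −0.39 to 0.10 for H2-DMa. For CALM-AF10 against CALM-AF10 ΔOM-LZ they ran from −1.59 to 0.31 for H2-Aa, −0.56 to 1.03 for H2-Ab1, −1.14 to 0.37 for Cd74 and −0.088 to 0.072 for Ciita. For the minimal fusion against CALM-AF10 ΔOM-LZ they ran from −1.46 to 0.44 for H2-Aa, −0.42 to 1.17 for H2-Ab1, −0.62 to 0.098 for H2-Eb1 and −0.062 to 0.066 for Ciita. For the minimal fusion against CALM-AF10 they ran from −0.072 to 0.25 for H2-Aa, −0.24 to 0.55 for H2-Ab1 and −0.060 to 0.10 for Ciita. For fusions with OM-LZ against arrays without it they ran from −0.95 to 0.25 for H2-Aa, −0.68 to 0.12 for H2-Ab1, −0.39 to 0.060 for H2-Eb1, −1.05 to 0.016 for Cd74 and −0.019 to 0.073 for Ciita. Signs elsewhere did not turn under any alternative.

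The replicate block on the 6 arrays of CALM-AF10 and CALM-AF10 ΔOM-LZ left H2-DMa at 0.27 (adjusted p = 0.382) and H2-Eb1 at −0.49 (adjusted p = 0.414), and changed no call of a member. Over all probe sets 1 was called with that block and 0 without it. A block over all 12 arrays called 0 members, and 1 probe set of all tested for the minimal fusion against MIG, against 8 without it.

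The number of probe sets called moved by over 1.5 times between alternatives: from 0 to 20 for the minimal fusion against MIG (8 as reported), 0 to 17 for the minimal fusion against CALM-AF10 ΔOM-LZ (4), 0 to 3 for the minimal fusion against CALM-AF10 (1), 1 to 6 for fusions with OM-LZ (3), 0 to 12 for the F test (2), 0 to 4 for CALM-AF10 ΔOM-LZ against MIG (0) and 0 to 1 for CALM-AF10 against MIG (0).

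With dim probe sets left out, H2-Aa and Ciita gave no value. The mean over a gene's probe sets was not run, since each member has 1. Without scanner files, background correction and a slide block were not tried. Ranges per array show that 3 arrays per construct limit what can be seen of H2-Aa, H2-Ab1 and Cd74.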

Other observations

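Clec10a, a lectin gene of dendritic cells and macrophages, had its 4 highest values in the 4 arrays that were highest for H2-Ab1: 9.10 in replicate 1 of CALM-AF10 ΔOM-LZ, 8.39 in replicate 3 of MIG, 7.96 in replicate 1 of CALM-AF10 and 7.45 in replicate 2 of MIG, with the other 8 arrays between 5.88 and 7.03. Gbp4, an interferon-induced GTPase gene, was at 9.98 in replicate 3 of MIG and between 5.48 and 6.52 in the other 11 arrays, while Ciita stood at 5.99 there. Cd86, the costimulatory ligand gene, was at 6.96, 5.73 and 6.27 in minimal fusion arrays, 7.29, 6.79 and 8.15 in CALM-AF10 arrays and 8.26, 7.05 and 8.18 in CALM-AF10 ΔOM-LZ arrays, against 6.90, 9.27 and 6.66 in MIG arrays. Flt3, the receptor that drives dendritic cell development, was at 8.84, 7.98 and 8.38 in minimal fusion arrays, against 6.90, 7.17 and 6.92 in MIG arrays. It was at 8.232, 6.856 and 8.615 in CALM-AF10 arrays and 7.306, 6.183 and 7.585 in CALM-AF10 ΔOM-LZ arrays. The log2 difference of the minimal fusion from MIG was 1.40 (SE 0.45, adjusted p = 0.521 by limma). These 2 groups did not overlap, and 6.08% of all probe sets had minimal fusion arrays entirely above MIG arrays. Of the 18 dendritic cell markers 8 had a difference of the minimal fusion from MIG above 0 and 10 below 0, with a median of −0.04. Clec10a, Gbp4 and Cd86 were picked after their values were seen.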
